A study of Homo sapiens with 6 samples.

Results

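Ribonucleotide reductase and the enzymes of thymidylate supply make the deoxynucleoside triphosphates (dNTPs) from which DNA is copied. The genes described are RRM1, RRM2, RRM2B, TYMS, TK1, DUT, DTYMK, DCK and SAMHD1, chosen by name as enzymes of dNTP supply and turnover, and all 9 had a row among the 15794 human genes of the authors' deposited table. RNA selected by poly(A) was sequenced from 6 samples of eHAP, an engineered haploid human cell line, with S2 cells of Drosophila mixed in as a spike-in. All 6 samples were eHAP cells that expressed Cas9, received a guide RNA plasmid with puromycin resistance, were kept in puromycin from 24 to 72 h and were collected at 5 days. The labels call 3 replicates knockout, with TFDP1 as the knockout gene, and the other 3 wild-type, with no knockout gene. They describe a selected population of transfected cells and mention no step of cloning, and they do not say which guides the wild-type samples received. DP1, the product of TFDP1, pairs with most transcription factors of the E2F family when they bind DNA.

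In S phase, ribonucleotide reductase turns ribonucleoside diphosphates into their deoxy forms. Its catalytic large subunit is encoded by RRM1, and its small subunit by RRM2 in cycling cells or by RRM2B, a p53 target used outside S phase. Thymidylate has its own supply. TYMS makes it from dUMP, TK1 from salvaged thymidine, DUT provides dUMP by cleaving dUTP, and DTYMK carries thymidylate on to the diphosphate. DCK salvages deoxycytidine, and SAMHD1 breaks dNTPs down. Several of these genes are textbook targets of E2F, and their transcripts follow the cell cycle in dividing cells.

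The question was how targeting TFDP1 alters the transcripts of the cells. Values per sample were not analysed here, so each gene has 1 fold change, 1 mean level and the p of the authors' likelihood ratio test. The authors' deposited table does not name the numerator of its fold changes. Directions are therefore given by TFDP1 itself, whose log2 fold change in the authors' deposited table was 1.17 at a mean of 226 CPM, or read counts scaled to library size (adjusted p = 1.08e-283). "Positive" means higher in the TFDP1-rich group, the one whose TFDP1 transcript level is higher, and "negative" means lower there. Which of the knockout and control groups is the TFDP1-rich one cannot be told from these values.

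The stretches of sequence shown first come from the promoters of 4 genes with positive calls and of TK1, which was not called. They show which searched letters, E2F or other, stand near these starts. All are read 5′ to 3′ on the gene's strand, from RefSeq on GRCh38.p14. RRM1 is shown with the 250 bases before its start, at chr11:4094435-4094684 (plus strand), which hold no annotated exon of RRM1. For the others, whose windows overlap exons of longer annotated transcripts of the same gene, only the bases around matches are shown. Those of RRM2 lie at chr2:10122608-10122627, chr2:10122638-10122657 and chr2:10122665-10122684 (plus), that of TYMS at chr18:657608-657627 (plus), that of DUT at chr15:48332151-48332180 (plus), and those of TK1 at chr17:78187118-78187137 and chr17:78187087-78187106 (minus). Capitals mark letters matched on either strand: the E2F site (TTTGGCGC, TTTGCCGC, TTTCGCGC or TTTCCCGC), a shorter E2F core (TTCCCGCC), the CHR element of mitotic genes (TTTGAA or TTCGAA) and the NF-Y box (CCAAT).
RRM1: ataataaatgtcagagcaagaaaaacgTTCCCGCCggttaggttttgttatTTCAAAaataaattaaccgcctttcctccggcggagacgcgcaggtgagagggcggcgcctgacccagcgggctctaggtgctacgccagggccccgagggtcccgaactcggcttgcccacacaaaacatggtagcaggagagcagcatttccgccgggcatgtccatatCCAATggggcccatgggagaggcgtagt
RRM2, box at -123: aggcgcagCCAATgggaagg
RRM2, box at -93: tggcacagCCAATgggaagg
RRM2, box at -66: caccaaagCCAATgggaagg
TYMS, site at -39: acggccGCGGGAAAaggcgc
DUT, sites at -42 and -27: gctGGCGGGAAAtttcggtTTTGGCGCgct
TK1, box at -77: gggcgctgATTGGccccatg
TK1, box at -46: ggctcgtgATTGGccagcac

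Windows from 250 bases before to 50 after the start were searched for 8 of the 9 genes, 13 windows in all. The window at the downstream RRM2 start held 3 NF-Y boxes, at positions -123, -93 and -66 from the start, and no match to the E2F letters. In the stretches printed, each of these boxes is followed by the letters gggaagg. The upstream start of RRM2 had a single NF-Y box, at -249. RRM1 had the E2F core at -223, a CHR match at -199 and an NF-Y box at -28. TYMS held 1 E2F site, at -39. DUT had 2 E2F sites at -42 and -27 at its last start, with the E2F core at -43 overlapping the first of them and CHR matches at -214 and -129, and no match at its other 3 starts. TK1 had 2 NF-Y boxes, at -77 and -46 from the downstream of its 2 starts. Of the others, DTYMK had 2 NF-Y boxes and a CHR match, DCK an E2F site at position 22 after the start, and SAMHD1 2 NF-Y boxes. Over all 35093 promoter windows of the same length, 3.32% held an E2F site, 3.15% the E2F core, 16.4% a CHR match and 34.6% an NF-Y box. Of the 13 windows of the 8 genes, 3 held an E2F site, 2 the core, 3 a CHR match and 6 an NF-Y box. Matches stood both in genes with positive calls and in TK1, and a window without a match says only that these letters are not in it.

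**Figure D1:**
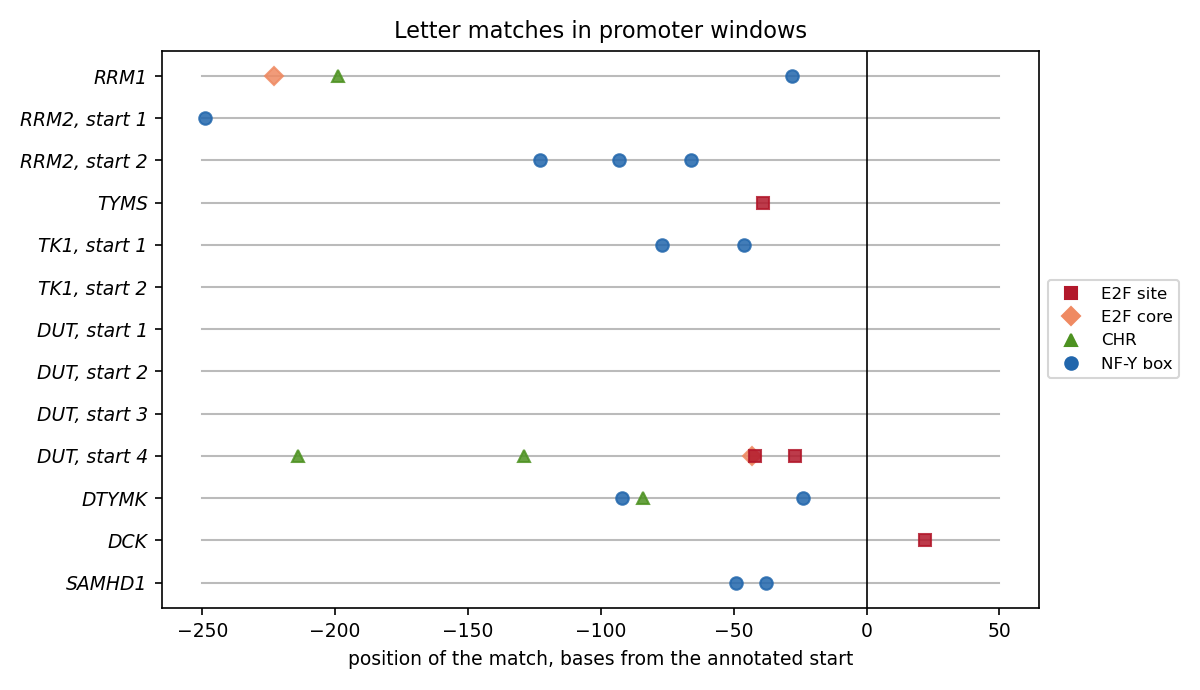
Positions of the letter matches, in bases from the annotated start, in the 13 RefSeq promoter windows of 8 genes (1 line per start, from 250 bases before to 50 after). RRM2 has its 3 NF-Y boxes between -123 and -66, and the E2F sites of DUT at -42 and -27 stand at the last of its 4 starts.

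Of the 9 genes, 7 were called positive at the authors' adjusted p under 0.05, 0 negative, and 2 were not called. Over all genes in the authors' deposited table, a share of 39.5% was called, 17.3% positive and 22.2% negative. All 9 genes lay above the median level of 23.5 CPM, and among the 7897 genes at or above it 25.4% were called positive. The median log2 fold change of the 9 genes was 0.36, against -0.03 for all genes and -0.0027 for those at or above the median level. The called genes ranged from 2.35-fold for RRM2 to 1.12-fold for SAMHD1 in the authors' deposited table, and 4 of the 9 differed by at least 1.5-fold. Both genes not called, RRM2B and TK1, have a counterpart in the list with a larger positive change, RRM2 for the small subunit and TYMS for thymidylate.

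The error of each fold change was approximated as the absolute log2 value over the root of its likelihood ratio. These standard errors ran from 0.0459 for RRM2 to 0.0712 for DTYMK on the log2 scale. Against other genes at the same level they varied. The median for genes within 0.5 log2 CPM of RRM2 was 0.0425, and for those near DTYMK 0.0532, both below the value of the gene itself. RRM1, TYMS, DUT and DCK also lay above the median near their level, and RRM2B, TK1 and SAMHD1 below it. Levels in each group were computed from the mean level and the fold change, with equal weight to both groups. Fewer cells in a phase that uses a transcript and less of that transcript per cell cannot be told apart in such bulk samples.

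**Figure D2:**
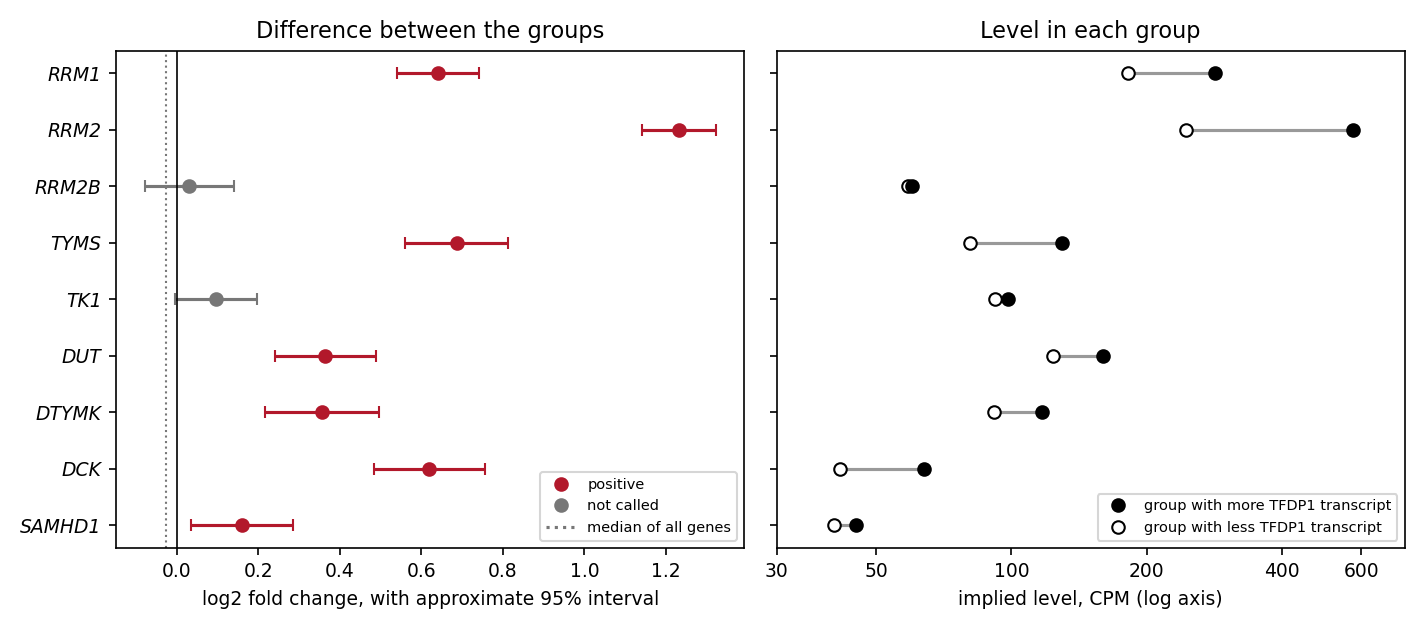
Left, the log2 fold change of each gene with its approximate 95% interval (red, called positive; grey, not called; dotted line, the median of all genes at -0.03). Right, the level in CPM that the mean and the fold change imply for the TFDP1-rich group (filled) and the other group (open); RRM2 has the widest gap, 576 to 245 CPM, and RRM2B the narrowest.

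RRM2, the small subunit of the reductase in cycling cells, showed the largest change of the 9. The authors' deposited table gives it a mean of 410 CPM, a log2 fold change of 1.23 and an adjusted p = 2.45e-155. The implied level was 576 CPM in the TFDP1-rich group and 245 CPM in the other, a 2.35-fold difference with an approximate 95% interval of 2.21 to 2.50. None of the 360 other genes within 0.5 log2 CPM of RRM2 had a higher log2 fold change, and 1 of the 7897 genes at or above the median level did. That gene, named after its value was seen, was E2F7, which encodes an E2F repressor that binds DNA without DP1, at 1.61 in the authors' deposited table. RRM2 lies at chr2:10120698-10131419 on the plus strand (ENSG00000171848.14, protein coding, GENCODE 29 on GRCh38). Its exons share 1077 bases with another protein coding model on the same strand, AC007240.1, and 3 annotated pseudogenes carry its name, none of them with a row, so how its reads were assigned is uncertain.

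RRM1, the large subunit that holds the catalytic and the allosteric sites, changed by less than RRM2. Its log2 fold change in the authors' deposited table was 0.64 at 232 CPM (adjusted p = 1.4e-33). The implied levels were 283 CPM and 182 CPM, 1.56-fold apart with an interval of 1.45 to 1.67. Among the 876 genes near its level, 6 had a higher log2 fold change. The intervals of RRM1 and RRM2 did not overlap, although the difference between the genes was not tested. RRM1 lies at chr11:4094707-4138876 on the plus strand (ENSG00000167325.14), and the antisense model RRM1-AS1 covers 63 of its exonic bases.

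RRM2B, the p53-inducible small subunit, had a log2 fold change of 0.03 at 59.5 CPM in the authors' deposited table (adjusted p = 0.732). The implied levels were 60.1 CPM and 58.9 CPM, and the approximate interval ran from 0.947-fold to 1.10-fold. Of the 2700 genes near its level 1200 had a higher log2 fold change, which places it close to the middle of them. The sign was not stable: once trends with transcript length and GC were taken out it was -0.10 (adjusted p = 0.171 from the approximate standard errors). RRM2B lies at chr8:102204502-102239118 on the minus strand (ENSG00000048392.11).

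Levels of different genes were compared per kilobase of annotated exon. Per kilobase, RRM2 stood at 149 CPM in the TFDP1-rich group and 63.5 CPM in the other, RRM1 at 84.3 and 54.1, and RRM2B at 11.7 and 11.4. The ratio of RRM2 to RRM2B was thus 12.8 in the TFDP1-rich group and 5.55 in the other, and that of RRM2 to RRM1 was 1.77 and 1.17. With the longest transcript as the length, these ratios were 12.9 and 5.59, and 1.75 and 1.16. RRM2 was the more abundant small subunit transcript in both groups. The ratios carry no replicate error.

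TYMS, the thymidylate synthase that methylates dUMP, had a log2 fold change of 0.69 at 105 CPM in the authors' deposited table (adjusted p = 9.74e-25). Levels of 130 CPM in the TFDP1-rich group and 80.7 CPM in the other were implied, 1.61-fold apart with an interval of 1.47 to 1.76. Of 2104 genes near its level, 15 had a higher log2 fold change. TYMS lies at chr18:657604-673578 on the plus strand (ENSG00000176890.15). Genes on the opposite strand overlap it, ENOSF1 by 967 exonic bases and TYMSOS by 183, and no source used here gives the strand setting of read counting. ENOSF1 was not called in the authors' deposited table, at -0.09 and 58.5 CPM (adjusted p = 0.266). TYMSOS, which is transcribed away from the TYMS promoter, was positive there at 0.56 and 7.44 CPM (adjusted p = 1.28e-04). The values of TYMS and TYMSOS are uncertain for the same reason of strand, and 2 pseudogenes without a row carry the name of TYMS.

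TK1, the cytosolic thymidine kinase of the salvage route, was not called. The authors' deposited table lists a log2 fold change of 0.10 at 95.1 CPM and an adjusted p = 0.146. Implied levels were 98.3 CPM and 91.9 CPM, with an interval of 0.996-fold to 1.15-fold, and 677 of 2262 genes near its level had a higher log2 fold change. The call depended on the setting. Re-centred on the median gene TK1 was positive at 0.12 (adjusted p = 0.0466 from the approximate standard errors). On the median ribosomal protein gene it was positive at 0.18 (adjusted p = 0.00216), and with length and GC trends removed at 0.30 (adjusted p = 1.22e-07). These p were adjusted over the analysed rows, fewer than the about 18703 that the authors' FDR values fit. With no re-centring, adjustment over the analysed rows alone took TK1 from 0.146 to 0.127. The 0.0466 under the median centring lies close to the threshold and also reflects the smaller number of rows. The longest TK1 transcript, of 1681 bases, has 62.8% GC, against medians of 3488 bases and 48.8% over all genes with values. Under each of these settings the value of TK1 was below that of TYMS, which ran from 0.71 to 0.77. Per kilobase, TYMS exceeded TK1 by 1.37 times in the TFDP1-rich group, and the ratio was 0.911 in the other. TK1 lies at chr17:78174075-78187233 on the minus strand (ENSG00000167900.11).

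DUT and DTYMK, which act before and after thymidylate synthesis, had nearly the same moderate change. DUT was positive at 0.36 and 142 CPM in the authors' deposited table (adjusted p = 1.18e-07). Its implied levels were 160 CPM and 124 CPM, 1.29-fold apart with an interval of 1.18 to 1.40. In the authors' deposited table DTYMK stood at 0.36 and 104 CPM (adjusted p = 5.03e-06). The levels implied for it were 117 CPM and 91.2 CPM, 1.28-fold apart with an interval of 1.16 to 1.41. About as many genes near their levels were higher, 79 of 1637 for DUT (4.83%) and 109 of 2132 for DTYMK (5.11%). With length and GC trends removed they parted, DUT at 0.38 and DTYMK, short and GC-rich at 1232 bases and 59.7%, at 0.54. DUT lies at chr15:48331011-48343373 on the plus strand (ENSG00000128951.13), and the antisense model AC023355.1 shares 533 of its exonic bases. As 8 pseudogenes carry its name, none of them with a row, how its reads were assigned is uncertain. DTYMK lies at chr2:241675742-241686991 on the minus strand (ENSG00000168393.12).

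DCK, the kinase that salvages deoxycytidine and also takes purine deoxynucleosides, changed about as much as RRM1 from a lower level. In the authors' deposited table it had a log2 fold change of 0.62 at 52.8 CPM and an adjusted p = 1.47e-17. The implied levels were 63.9 CPM and 41.6 CPM, 1.54-fold apart with an interval of 1.40 to 1.69, and 26 of 2706 genes near its level were higher. DCK lies at chr4:70992538-71030914 on the plus strand (ENSG00000156136.9) and shares 199 exonic bases with MOB1B on the same strand. MOB1B itself was called positive at 0.185 and 54.5 CPM in the authors' deposited table (adjusted p = 0.0422).

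SAMHD1, the triphosphohydrolase that degrades dNTPs, had the smallest of the called changes. It was positive at 0.16 and 42.7 CPM in the authors' deposited table (adjusted p = 0.036). The levels of 45.1 CPM and 40.3 CPM implied for it differed by 1.12-fold, with an interval of 1.03 to 1.22. Among the genes near its level, 654 of 2664 (24.5%) had a higher log2 fold change. The call ended at an adjusted p under 0.01 and with length and GC trends removed, where the value was 0.10 (adjusted p = 0.23). SAMHD1 lies at chr20:36889773-36951901 on the minus strand (ENSG00000101347.9), and TLDC2, which shares 1159 exonic bases on the opposite strand, was at only 0.388 CPM in the authors' deposited table.

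**Figure D3:**
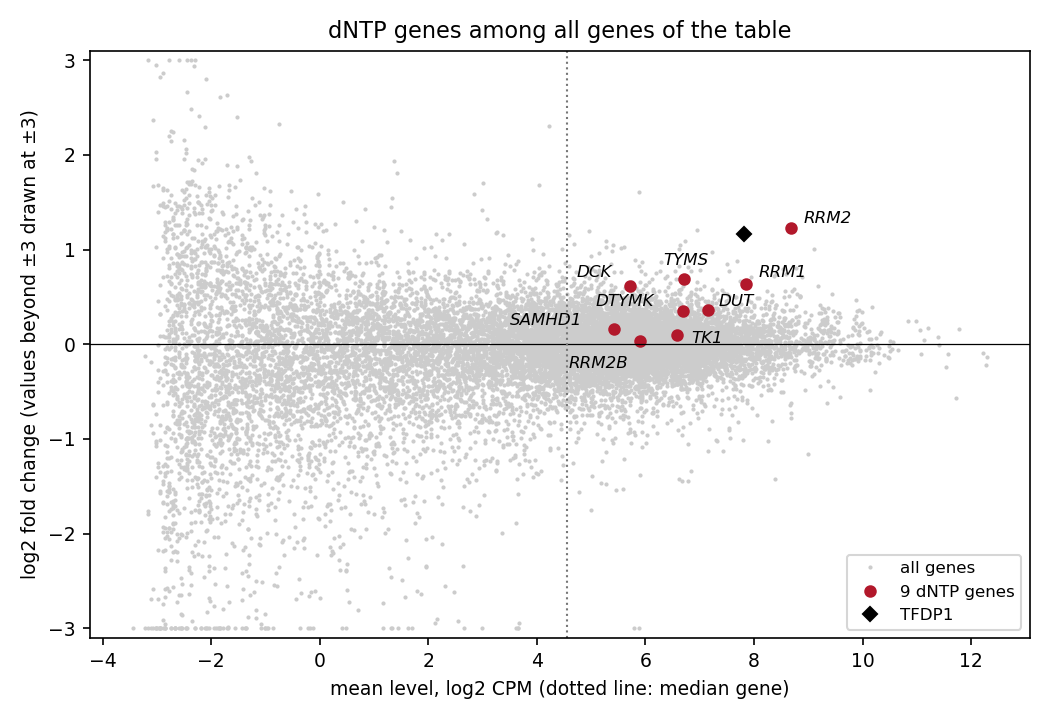
Log2 fold change against mean level (log2 CPM) for all 15794 genes (grey), the 9 dNTP genes (red) and TFDP1 (black); values beyond 3 in either direction are drawn at 3. All 9 genes lie right of the median level, and RRM2 stands above every gene within 0.5 log2 CPM of it.

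Added together, the implied levels of the 9 genes came to 1532 CPM in the TFDP1-rich group and 955 CPM in the other. RRM2 accounted for 57.3% of this difference of 577 CPM, and RRM2 with RRM1 for 74.9%. These shares are on the CPM scale, which gives long and abundant transcripts more weight.

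By the distance of log2 fold change and mean level, each divided by its SD over all genes, the 3 genes nearest to RRM2 were TFDP1, MKI67 and SLC7A11. MKI67, which encodes the proliferation marker Ki-67, had a log2 fold change of 1.00 at 552 CPM in the authors' deposited table (adjusted p = 3.01e-55). The cystine transporter gene SLC7A11 was at 1.21 and 124 CPM there (adjusted p = 2.49e-69). The 3 genes were picked by these same values, and the likeness rests on 1 comparison of 6 samples.

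Other genes of nucleotide metabolism, and regulators of RRM2 and TK1 protein, were read in lists. In 7 lists by function, 68 further genes had a row, of which 21 were positive, 16 negative and 31 not called. Over all genes 17.3% were positive and 22.2% negative, and among those at or above the median level 25.4% were positive. The 9 regulators gave 6 of the 21 positive calls and 0 of the negative ones. The median log2 fold change of the 68 genes was 0.02, against -0.03 for all genes. Among 16 other nucleoside and nucleotide kinases 3 were positive and 5 negative, with a median of -0.07. CMPK1, which phosphorylates CMP, UMP and dCMP, was at 0.35, the uridine-cytidine kinase UCK1 at 0.30 and the adenosine kinase ADK at 0.24 in the authors' deposited table. The adenylate kinase AK4 (-0.61), the mitochondrial diphosphate kinase NME4 (-0.31) and the guanylate kinase GUK1 (-0.34) were negative in the authors' deposited table. The mitochondrial deoxynucleoside kinases did not pass the authors' test, with TK2 at -0.20 (adjusted p = 0.14) and DGUOK at -0.05 (adjusted p = 0.49) in the authors' deposited table.

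Enzymes of nucleotide turnover gave 2 positive and 4 negative of 14, with a median of -0.09, where 17.3% of all genes were positive and 22.2% negative. DCTPP1, a dCTP pyrophosphatase, was at 0.23 and the mitochondrial nucleotidase NT5M at 0.38 in the authors' deposited table. Negative there were NT5C2 (-0.27), a nucleotidase for IMP and GMP, ITPA (-0.25), which clears inosine triphosphate, and the cytidine deaminase gene CDA (-3.67). CDA stood at only 0.864 CPM, so few reads lay behind its value. DCTD, which deaminates dCMP to the dUMP that TYMS uses, was not called at 0.07 (adjusted p = 0.402) in the authors' deposited table.

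The folate cycle hands TYMS its methyl group, and 5 of its 13 genes with a row were positive and 4 negative, with a median of 0.08. The shares over all genes were 17.3% positive and 22.2% negative, and 25.4% positive among those at or above the median level. The mitochondrial enzymes MTHFD1L (0.41), SHMT2 (0.43) and MTHFD2 (0.33) had the smallest p among the positive genes of this list in the authors' deposited table. The folate carrier SLC46A1 was negative there, at -0.47. The folate receptor FOLR1 was at -3.83 and 2.72 CPM in the authors' deposited table. De novo pyrimidine synthesis gave 2 positive and 1 negative of 5, with CTPS1 at 0.22, DHODH at 0.26 and CAD, the first enzyme of the route, at -0.19 in the authors' deposited table.

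Ribonucleotide reductase takes its electrons from thioredoxin and glutaredoxin. Among 4 genes of this supply, TXNRD1 (0.53) and GSR (0.19) were positive, the glutaredoxin gene GLRX (-0.74, at 5.68 CPM) negative and the thioredoxin gene TXN not called in the authors' deposited table. Of 9 genes listed as regulators of RRM2 and TK1 protein, 6 were positive and 0 negative, with a median of 0.20, where 25.4% of all genes at or above the median level were positive. CCNF, whose product marks RRM2 for destruction, was at 0.45, and CDK2 at 0.60, CDK1 at 0.44 and the cyclin gene CCNA2 at 0.49 in the authors' deposited table. Transporters of nucleosides and nucleotides gave 1 positive and 1 negative of 7, with SLC29A1 at 0.13 and SLC29A2 at -0.26 in the authors' deposited table. Beside these lists, 17.3% of all genes were positive and 22.2% negative.

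**Figure D4:**
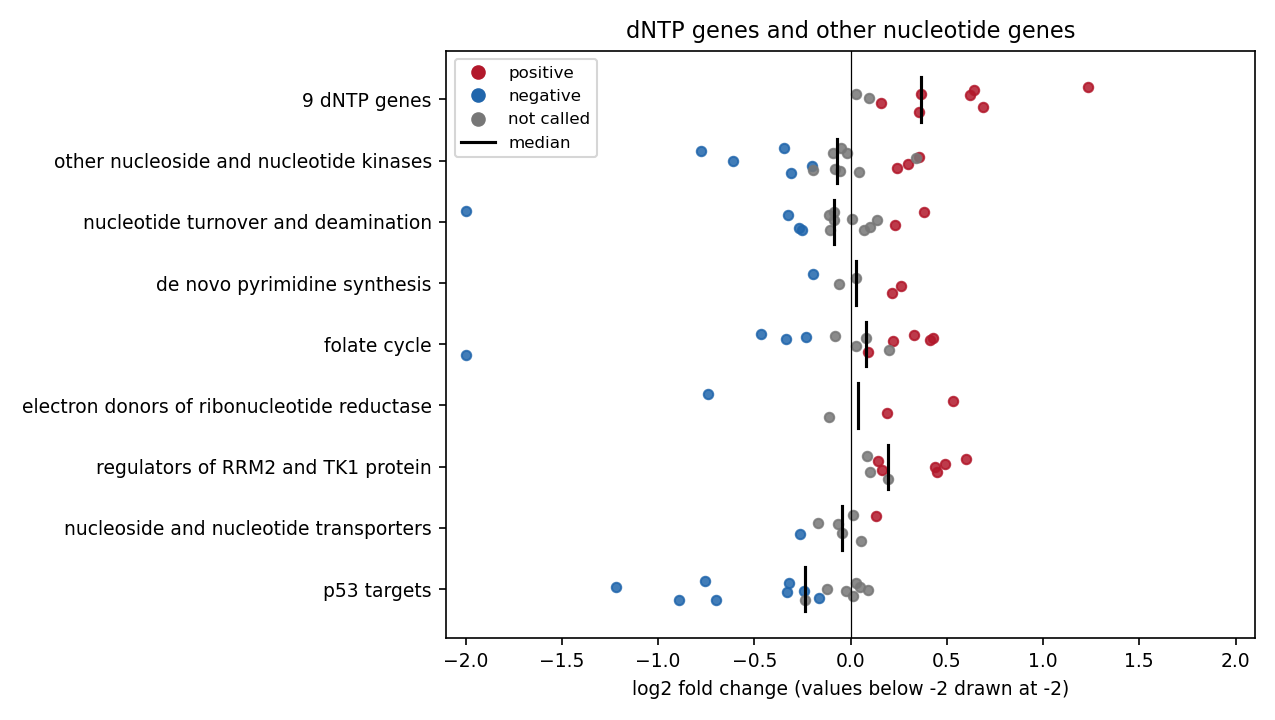
Log2 fold changes of the 9 dNTP genes and of 8 lists of related genes (1 point per gene; red, called positive; blue, called negative; grey, not called; black bar, median of the list; values below -2 drawn at -2). The 9 dNTP genes have a median of 0.36, and the medians of the 8 lists lie between -0.24 and 0.20.

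Both re-centrings raised every fold change of the 9 genes by the same amount, by 0.03 for the median gene and 0.08 for the median of 79 ribosomal protein genes, which stood at -0.03 and -0.08. With the ribosomal centring positive calls over all genes numbered 4214 and negative ones 2547, where the deposited values gave 2738 and 3506. The count of positive genes among the 9, adjusted over the analysed rows, was 8 under either centring and 7 with length and GC trends removed. Over all genes tested, 20.4% were positive on the median centring, 26.7% on the ribosomal centring and 18.1% with trends removed, against 17.3% as deposited. RRM2, RRM1, TYMS, DCK, DUT and DTYMK were positive under both centrings and with the trends removed.

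**Figure D5:**
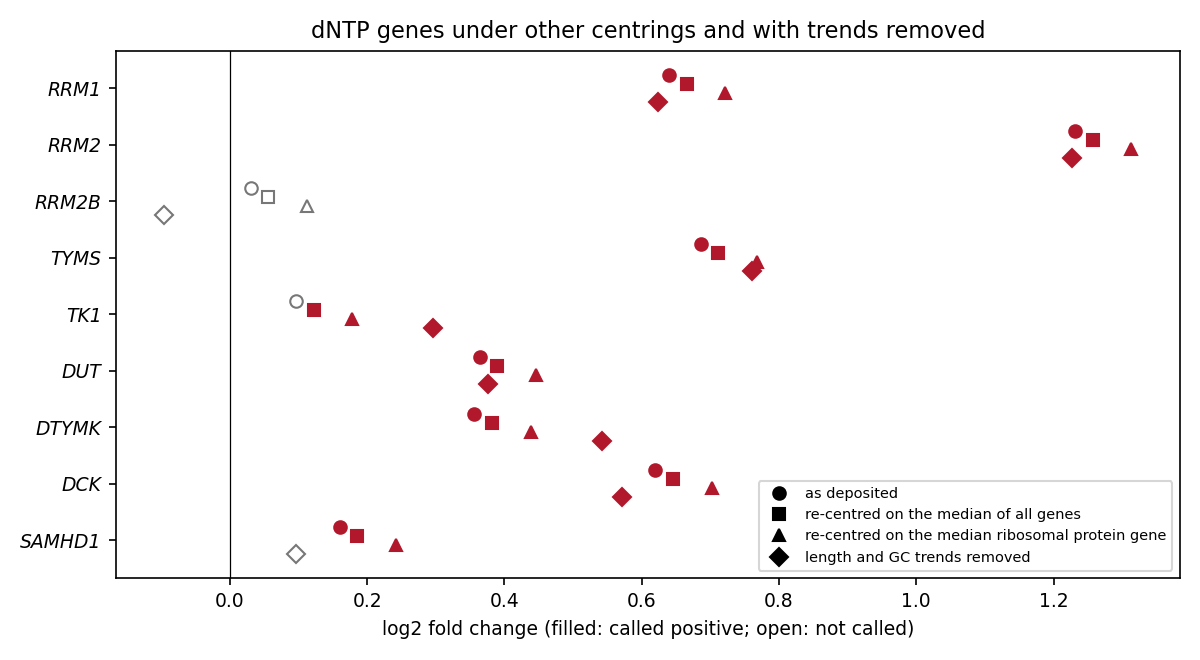
Log2 fold change of each gene as deposited, under 2 re-centrings and with length and GC trends removed (filled, called positive; open, not called). TK1 is open only as deposited, SAMHD1 only with trends removed, and RRM2B under all 4, with its sign turned to -0.10 by the removal of trends.

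Library depths are unknown from these values. As a check on the line, which derives from leukaemia cells, markers of blood and of other cells were read. Of 6 blood markers 3 had a row, at 0.177 to 15.3 CPM, with 1 positive and 1 negative, and the leukocyte marker PTPRC (CD45) had none. Of 7 fibroblast markers 4 had a row, at 0.257 to 19.4 CPM, and 3 were negative. Of 5 epithelial markers 3 had a row, at 0.515 to 40 CPM, and all 3 were negative. Called fibroblast and epithelial markers thus had the opposite sign to the called dNTP genes, as did the negative blood marker, KIT. In the authors' deposited table KIT stood at -0.98 and 15.3 CPM and the keratin gene KRT8 at -2.94 and 12.8 CPM. CDH1 and COL1A2 had no row, and 22.2% of all genes were called negative. The part of these markers in the results was not tested.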

How the data were processed

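Trimmomatic, HISAT2, featureCounts and edgeR, with the builds hg38 and dm6, are named without versions or order per the submitters' processing notes. The log2 fold change and log2 CPM columns are the authors' values from their edgeR comparison of 3 and 3 samples. The deposited p-values and FDR values belong to a test by likelihood ratio, as the file headers show. That ratio was deposited by the authors as a score for each gene. No source used here gives the strand setting or whether libraries were scaled by human reads or by the spike-in. The FDR values fit about 18703 tested rows, and 15794 were analysed. Per-sample depths are unknown, so the precision of a value comes only from the approximate standard error.

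A gene was called where the authors' FDR was under 0.05, with no new test of the samples. The 9 genes and all lists were chosen with earlier results of these data known. Intervals reach 1.96 approximate standard errors to each side. For other centrings and trend removal (lowess, span 0.3, statsmodels 0.14.6), p-values were recomputed from these errors with Benjamini-Hochberg adjustment. How well the approximate errors and the recomputed calls hold for these samples was not tested. GENCODE 29 (GRCh38) gave positions, exon lengths and GC content, and RefSeq (GRCh38.p14) the promoters. Named from each list were up to 3 called genes per direction with the smallest p, together with TFDP1, TK2, DGUOK, CMPK1, DCTD, CCNF and the 3 genes nearest to RRM2. Some genes that this rule names are not reported here. Genes that overlap one of the 9 were added after the data were seen. Protein sequences were not used here. Python 3.11.15, pandas 2.3.3, numpy 2.4.6, scipy 1.17.1 and matplotlib 3.10.9 were used.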

Additional observations from a re-analysis of the deposited data

How the results depend on the processing

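Among 9 alternatives, the number of the 9 genes called positive ran from 6 to 8, except that requiring at least 1.5-fold left 4 (RRM2, RRM1, TYMS and DCK), and none called any negative. The share of all tested genes called positive ran from 2.48% at 1.5-fold to 26.7% on the ribosomal centring. No called gene of the 9 changed sign. SAMHD1 lost its call at an FDR under 0.01, with Bonferroni adjustment over the rows, with length and GC trends removed and at 1.5-fold, and DUT and DTYMK lost theirs at 1.5-fold. TK1 gained a call under both centrings and with trends removed. The losses at stricter thresholds follow from the deposited values. SAMHD1 had an adjusted p of 0.036 in the authors' test and differed by 1.12-fold, DUT by 1.29-fold and DTYMK by 1.28-fold. Why the other calls moved was not tested. Over all genes, positive and negative calls went from 2738 and 3506 to 1030 and 1434 with Bonferroni adjustment, to 392 and 1082 at 1.5-fold and to 4214 and 2547 on the ribosomal centring. Of 144 list counts under the alternatives, 111 stayed within 1.5 times, 30 were lower and 3 higher. Of the lower ones, 10 came with Bonferroni adjustment and 13 with the 1.5-fold minimum. Positive calls in nucleotide turnover rose from 2 to 5 on the ribosomal centring and with trends removed, and positive p53 targets from 0 to 2 with trends removed. Leaving out each replicate and other count tests were not run, since values per sample were not analysed here. No paired analysis was possible because the values are those of a comparison, with none per sample. Depth limits the scarce genes most, and the approximate standard error was 0.50 for CDA at 0.864 CPM against 0.0459 for RRM2.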

Other observations

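RRM2B is a p53 target, and other p53 targets were read beside it. Of 15 listed, 8 were called negative and 0 positive, and 7 were not called, where 22.2% of all genes were negative and 17.3% positive. The list has a median level of 48.0 CPM, above that of all genes. Of the listed targets, GDF15 at 15.7 CPM and FAS at 9.90 CPM lay below the median level of all genes. With only genes at or above that level analysed, 7 of the remaining p53 targets were negative, as were 2212 of the 7897 genes. The median of the 15 was -0.24 on the log2 scale, against -0.03 for all genes. The pro-apoptotic gene BBC3 was at -0.76, the stress cytokine gene GDF15 at -1.22 and the oxidoreductase gene TP53I3 at -0.70 in the authors' deposited table, with adjusted p = 1.36e-23, adjusted p = 8.92e-16 and adjusted p = 1.8e-11. CDKN1A, the CDK inhibitor p21, was named after its value was seen, and stood at -0.89 and 145 CPM in the authors' deposited table (adjusted p = 1.12e-10). MDM2, the ubiquitin ligase that p53 induces against itself, was also named after its value was seen, and had a log2 fold change of 0.01 at 191 CPM (adjusted p = 0.95) in the authors' deposited table. RRM2B, at 0.03, lay with the 7 that were not called, which ranged from -0.24 to 0.09.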
